A study of Mus musculus and Homo sapiens with 14 samples.

Results

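Plasma cells of the bone marrow were compared with follicular B cells of the spleen, the antibody-secreting end stage of the B lineage against its resting, recirculating form. Both populations came from wild-type C57BL/6 mice and served as controls in a study of the transcription factor IRF4. Each was represented by 1 RNA-seq library, so 2 of the 14 libraries of the series, and 2 of its 10 mouse libraries, were compared. The rule took every entry of the mouse count table that carried a gene symbol, 26221 genes, of which 264 were immunoglobulin genes by their symbol (a name beginning Igh, Igk or Igl, or Jchain); this prefix also takes in Ighmbp2, Iglon5 and Igll1. The sort markers, the number of animals and whether they were pooled, and the age and sex of the mice are not given in the sources used here.

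Other mouse libraries of the series entered the scaling of library sizes, and otherwise served to set values side by side and to show how far 2 libraries of one group lay apart. They comprised 2 libraries each of splenic plasma cells of Irf4 flox/+ and Irf4 flox/- genotype, also on C57BL/6. These donor cells were sorted from congenic hosts that had received the donor bone marrow mixed with uMT bone marrow, were given tamoxifen on days 1, 2, 7 and 8, and were harvested on day 14. The driver of the tamoxifen-induced deletion is not given in the sources used here. The remaining 4 libraries were labelled MPC-11, a mouse plasmacytoma line carrying Cas9 with an empty vector or an Irf4 guide, given doxycycline and sorted after 3 days. Both flox/+ columns carry an identical header, so their libraries are referred to as a and b.

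A follicular B cell displays its antibody as a receptor, presents captured antigen on MHC class II and circulates between blood and lymphoid follicles. When it becomes a plasma cell, BLIMP-1 (Prdm1) silences much of that programme, IRF4 sustains the new state, and XBP1, activated by the endoplasmic reticulum (ER) stress sensor IRE1, enlarges the secretory pathway through which antibody leaves the cell. Bone marrow plasma cells depend on survival signals from their niche, among them the ligands of BCMA (Tnfrsf17).

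Read depth was close in the 2 libraries, with 21124371 counts in follicular B cells (FoB) and 21554149 in bone marrow plasma cells (BMPC), within the range of 18738283 to 27003585 over the mouse libraries. The composition was not: without immunoglobulin genes 20381028 counts remained in FoB and 6033820 in BMPC. Levels are therefore given as scaled CPM, the usual CPM with the library size corrected for composition by TMM (trimmed mean of M values), and differences as the log2 ratio of BMPC over FoB after adding 0.5 to each count. Scaling by library size alone moved every log2 ratio down by 1.86, so that a gene with a ratio between 0 and 1.86 was higher in BMPC on the TMM scale and lower by library size alone. The median over all genes was -0.03 on the TMM scale and -1.89 by library size. In a pair of values given without names FoB comes first. A gene with no count in one library is given as a bound, "at least", against 3 counts. With 1 library each there was no replicate check and no test, and intervals cover counting error only.

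The labels were first set against marker genes. Summed scaled CPM of 8 plasma cell markers were 425 in FoB and 52331 in BMPC, and those of 8 B cell markers were 6547 in FoB and 710 in BMPC, of which Ighd made up 582 in BMPC. In the 4 splenic plasma cell libraries Ighd lay between 7.60 and 105, below both. Markers of neutrophils and their precursors also moved with the comparison, at 849 scaled CPM in BMPC against 11.7 in FoB and 0 to 3.67 in the splenic plasma cells. In BMPC 11 of these 12 markers had counts and only Cxcr2 was at 0; in FoB 8 were at 0. Among them, Mpo, the granule peroxidase, stood at 168 in BMPC and 0 in FoB, and Ngp, a secondary granule protein, at 178 and 0.636 in the same order. In the MPC-11 libraries the list summed to 65.3 to 87.2. Nearly all of that was Prtn3, at 65.2 to 85.1, which stood at 27.0 in BMPC and 0 in FoB. Macrophage markers summed to 89.3 in FoB and 316 in BMPC, where Lyz2, Hmox1 and Cd68 made up 107, 106 and 53.8. Hmox1 and Cd68 were also found in the MPC-11 libraries. Adgre1 was lower in BMPC (6.84 and 2.25), as was Spic (1.25 and 1.08). Csf1r and C1qc were higher (0 and 7.22, 0.610 and 6.49). So were Mrc1 (0.560 and 12.8), Vcam1 (1.14 and 9.47), C1qa (0.0509 and 4.78) and C1qb (1.09 and 5.14). Mertk and Cd163 had no count in either library, and Fcgr1 had 10 counts in FoB and 0 in BMPC. Dendritic cell markers summed to 131 and 456. Of these sums Tcf4, also a B lineage gene, made up 87.3 and 316 and Bst2 29.4 and 119. Ccr9 was also higher in BMPC (1.20 and 14.3), while Flt3 (8.06 and 4.96) and Zbtb46 (1.63 and 0.631) were lower. Itgax had 99 counts in FoB and 0 in BMPC, and Xcr1 and Clec9a had no count in either library. T cell markers summed to 128 and 26.9, and erythroid markers to 339 and 8.57. NK cell markers lay close, at 23.3 and 21.1, of which Prf1 made up 12.7 and 17.2, and 5 of the 9 had no count in BMPC. Stromal and megakaryocyte markers were below 2 in both. The part of such other cells in the ratios below was not tested, and in bulk RNA fewer cells of a type and less RNA per cell cannot be told apart.

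**Figure D1:**
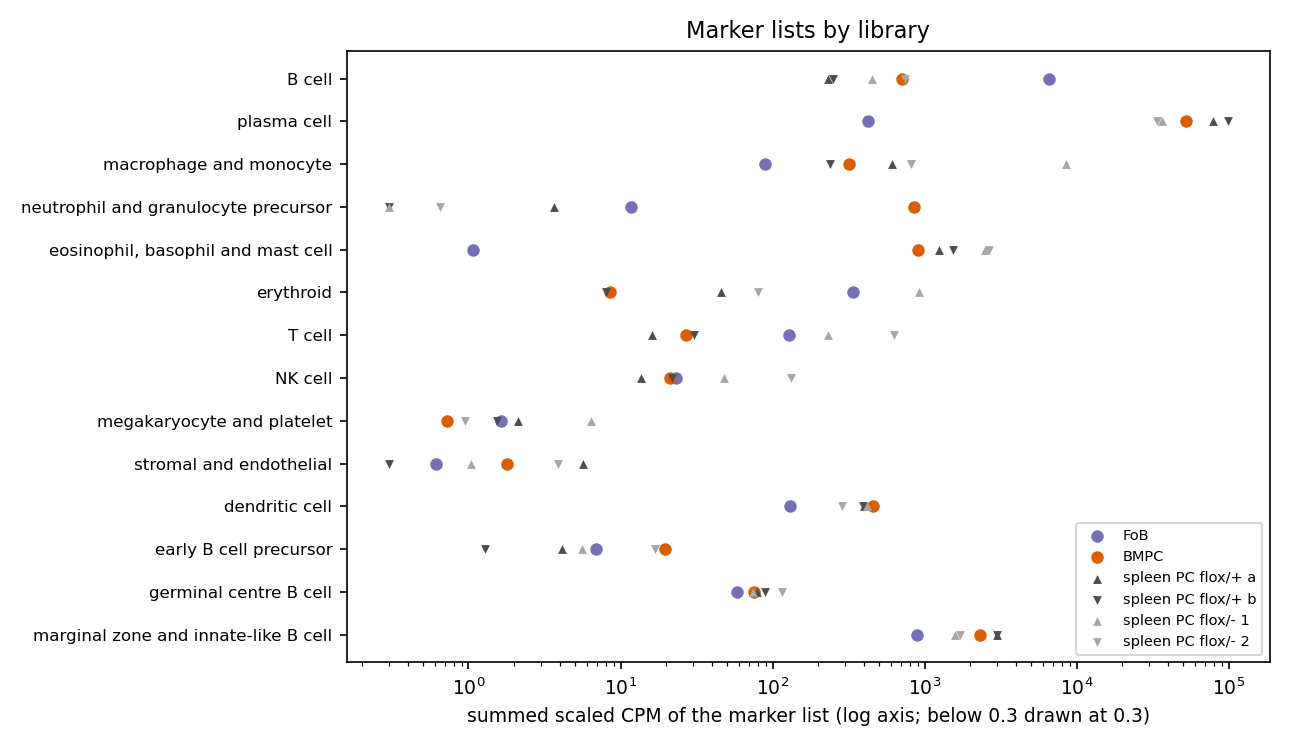
Summed scaled CPM (log axis) of 14 marker lists in FoB, BMPC and the 4 splenic plasma cell libraries, 1 point per library. Neutrophil markers reach 849 in BMPC and at most 3.67 in the splenic plasma cells, while erythroid and T cell markers are higher in FoB than in BMPC.

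Sex-linked genes also differed. The Y-linked genes Ddx3y, Eif2s3y, Kdm5d and Uty had 941, 714, 433 and 405 counts in FoB and 25, 22, 24 and 1 in BMPC, and Xist, expressed from the inactive X, had 0 counts in FoB and 199 in BMPC. The other 8 mouse libraries had 0 counts of all 4 Y-linked genes. The sex of the animals, the tissue and the cell type cannot be told apart in this pair of libraries.

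After a filter of at least 1 scaled CPM in either library, 11622 genes were compared, 11374 of them not immunoglobulin genes. At a 4-fold threshold 1970 genes were higher in BMPC and 1116 lower, or 17.0% and 9.60% of those compared and 26.6% in all. Without immunoglobulin genes 1729 were higher (15.2%) and 1116 lower (9.81%), together 25.0%; the counts within gene lists below read against these shares. They cover the members that passed the filter, 681 of the 703 entries of the 19 lists. By library size alone the same rule gave 1214 higher and 5414 lower genes. Past 16-fold lay 1195 higher and 495 lower genes, and 50.9% of genes stayed within 2-fold. No gene past 4-fold had a counting interval that reached equality, which this filter and threshold nearly fix in advance. The interval leaves out the spread between libraries.

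Libraries of one group lay further apart than counting error, with a chi-square of 112 to 266 per degree of freedom over genes, so the 2 libraries of each other group show the spread that a single pair cannot. Within those 4 groups 7.68% to 17.5% of genes differed 4-fold between 2 libraries of the same genotype or treatment. The gap depended on level. Without immunoglobulin genes, among genes of 1 to 10 scaled CPM in the higher library, 39.7% passed 4-fold between BMPC and FoB, against 37.3% between the 2 flox/+ libraries and 19.0% to 26.4% in the other groups. Among genes of 100 scaled CPM or more the shares were 30.6% between BMPC and FoB and 0.463% to 6.90% within groups. A 4-fold difference in a gene of low level was therefore little more frequent here than between the flox/+ libraries, whereas in abundant genes it was far more frequent.

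**Figure D2:**
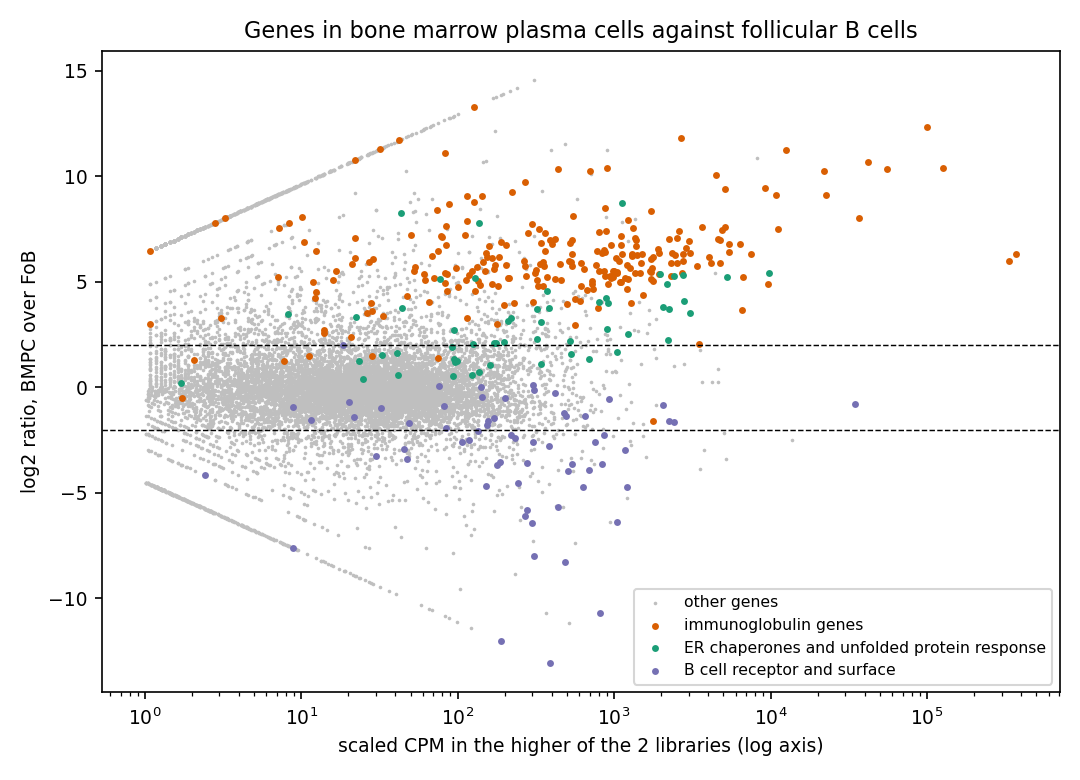
Log2 ratio of BMPC over FoB against the scaled CPM in the higher library (log axis) for 11622 genes, 1 point per gene, with dashed lines at 4-fold. Immunoglobulin genes lie nearly all above the upper line, ER chaperones above 0, and B cell receptor and surface genes mostly below 0; the slanting rows of points at the edges are genes with 0 or few counts in one library.

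Immunoglobulin transcripts took up 3.25% of the counts of FoB and 72.0% of those of BMPC, beside 75.6% and 77.2% in the flox/+ and 58.8% and 55.5% in the flox/- splenic plasma cells. Of 248 immunoglobulin genes that passed the filter, 241 were at least 4-fold higher in BMPC and none was 4-fold lower, with a median log2 ratio of 5.92. Jchain (chromosome 5, 88519809 to 88527897), the joining chain of polymeric IgM and IgA, made up 0.00485% of counts in FoB and 2.17% in BMPC. Reads of near-identical variable segments and constant genes could be assigned to either copy, so values of single segments are uncertain.

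The isotypes differed in mix as well as in amount. In FoB, Ighm made up 73.1% and Ighd 24.4% of heavy chain constant counts, the IgM and IgD of a naive cell. In BMPC, Ighm made up 51.4%, Ighg2b 19.3%, Igha 15.4%, Ighg2c 8.51%, Ighg3 3.35% and Ighg1 1.92%. These shares, like those of variable segments, are of counts not divided by gene length. Ighd made up 0.0892% of those counts, and its scaled CPM were 582 in BMPC against 1763 in FoB, the only 1 of the 12 constant genes that was lower on this scale. Ighe, at 0 counts in FoB, was at 127 scaled CPM in BMPC, at least 1666-fold higher. The flox/+ splenic plasma cells held less Ighm than BMPC, 17.4% and 16.4%, and more Ighg2c, 43.0% and 38.8%. The flox/- splenic plasma cells lay on either side of BMPC for Ighm, at 52.7% and 47.8%. Their Ighg2c shares were above that of BMPC and below those of the flox/+ cells.

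The light chain mix differed too. Lambda genes made up 26.4% of light chain constant counts in FoB and 5.02% in BMPC, a share that lay between 19.8% and 26.2% in the 4 splenic plasma cell libraries. On the scaled CPM scale Igkc was 79.8-fold higher in BMPC than in FoB, Iglc1 29.9-fold and Iglc3 4.22-fold.

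Use of variable segments was more uneven in BMPC. Heavy chain segments numbered 114 past the filter, 113 of them 4-fold higher in BMPC (median log2 ratio 6.35), and kappa segments 102, of which 101 were (median 5.75). To reach 50% of heavy variable counts took the 16 leading segments in FoB and 11 in BMPC, and for kappa 16 and 7. The inverse Simpson index, an effective number of segments, was 42.5 in FoB and 28.0 in BMPC for heavy and 42.0 and 14.1 for kappa. Ighv1-26 led in both libraries, with 4.97% of heavy variable counts in FoB and 10.2% in BMPC, and Ighv14-4 stood at 1.07% and 8.46%. Igkv6-15 held 6.77% of kappa variable counts in FoB and 20.3% in BMPC, and Igkv6-20 1.92% and 12.4%. The same indices were 39.1 and 37.0 (heavy) and 37.6 and 29.8 (kappa) in the flox/+ splenic plasma cells. In the flox/- splenic plasma cells they were 11.2 and 30.9 (heavy) and 12.7 and 31.6 (kappa). Only flox/- library 1 therefore lay below BMPC, and the other splenic plasma cell libraries lay above it on both indices.

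**Figure D3:**
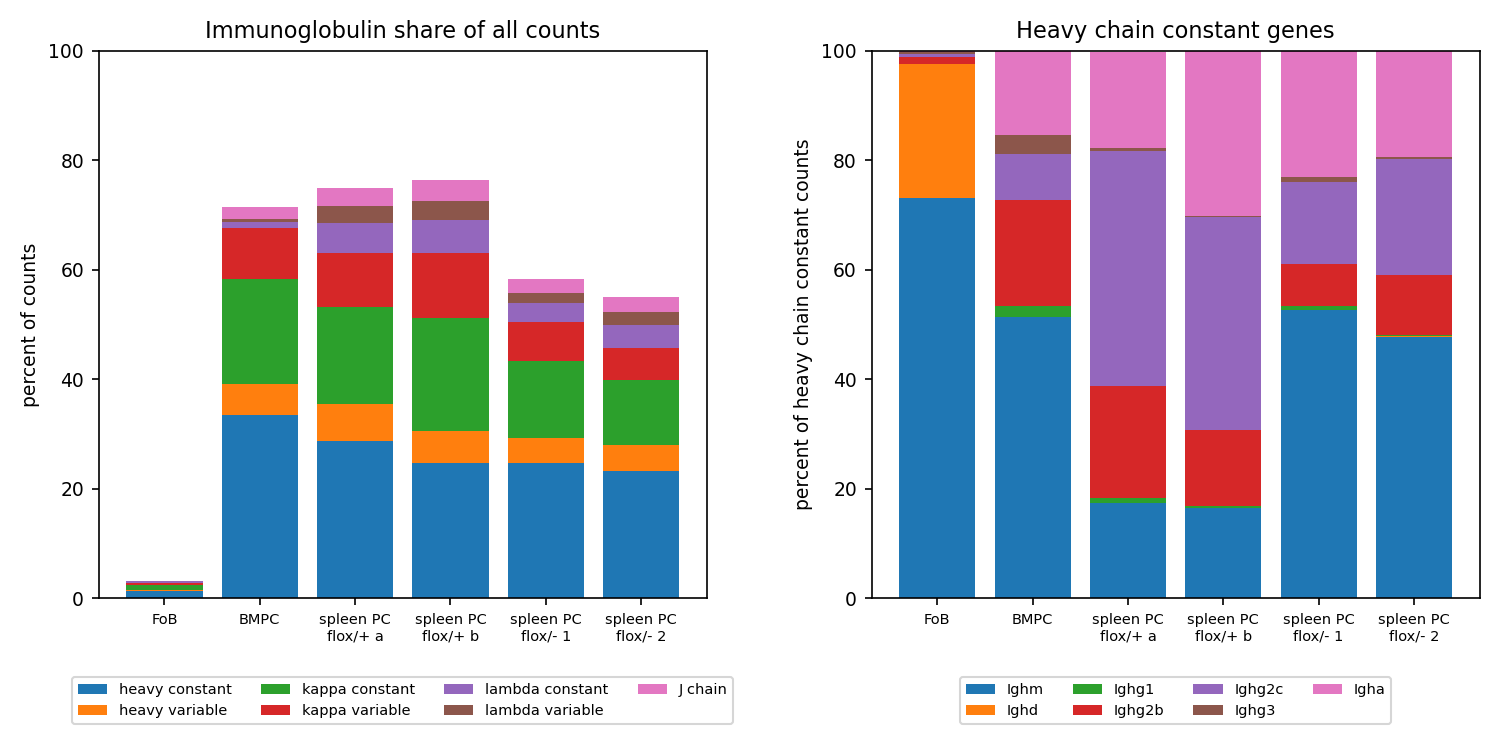
Left, percent of all counts in each class of immunoglobulin gene; right, percent of heavy chain constant counts by gene; 1 bar per library, without D and J segments (left) and Ighe (right). Immunoglobulin genes fill 3.25% of FoB and 72.0% of BMPC, and Ighd, 24.4% of constant counts in FoB, is not visible in BMPC.

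Of the 22 regulators of plasma cells that were listed, 10 were at least 4-fold higher in BMPC and 1 was 4-fold lower, with a median log2 ratio of 1.83 (-0.03 by library size alone). Prdm1 (chromosome 10, 44437174 to 44528558), which encodes BLIMP-1, stood at 1.12 scaled CPM in FoB and 159.7 in BMPC, a log2 ratio of 7.14 with a counting interval of 6.73 to 7.62. Xbp1 (chromosome 11, 5520641 to 5525993) stood at 139 and 5273, a 37.9-fold difference, and Irf4 (chromosome 13, 30749233 to 30766981) at 55.2 and 374, 6.77-fold. The flox/+ splenic plasma cells had 4307 and 5932 scaled CPM of Xbp1, 88.6 and 94.6 of Prdm1 and 179 and 86.9 of Irf4, each above FoB.

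The factor with the largest ratio was Bhlha15 (MIST1), a regulator of secretory cells, with 0 counts in FoB and 309 scaled CPM in BMPC, at least 4049-fold higher. Creb3l2, a membrane-bound factor of the secretory pathway, went from 0.610 to 138, Zbtb20 from 28.4 to 261 and Zbtb38 from 4.68 to 50.7, the last 2 being zinc finger repressors. The AP-1 genes Fos and Jun stood at 409 and 686 in BMPC against 23.3 and 149.8 in FoB. Pou2af1, the B cell coactivator OBF-1, had a log2 ratio of 1.81 and its partner Pou2f2 (OCT2) one of -1.80. The E protein gene Tcf4 had a ratio of 1.86, Tcf3 one of -0.19, and Id3, an inhibitor of E proteins, one of -6.71, from 128 scaled CPM in FoB to 1.17 in BMPC.

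Regulators of the B cell state were mostly lower in BMPC: of 32 that passed the filter, 21 were at least 4-fold lower and 2 higher, with a median log2 ratio of -2.85. Pax5 (chromosome 4, 44524748 to 44710694), which holds B cell identity, stood at 13.3 scaled CPM in FoB and 0.361 in BMPC. Bach2, a repressor of Prdm1, was 26.9-fold lower (95.7 against 3.52), Ebf1 20.9-fold (121 against 5.77), Spib 166-fold and Bcl6, the germinal centre repressor, 41.1-fold lower. Ciita, the master coactivator of MHC class II genes, was among the most different genes of all, at 512 in FoB and 0.180 in BMPC, where it had 2 counts.

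Several B lineage factors differed less. Foxo1 had a log2 ratio of -1.33, Spi1 (PU.1) of -1.77, Irf8 of -1.84 and Ikzf1 of -0.65, all within 4-fold. The 2 members past 4-fold in the other direction were Mef2b, a germinal centre factor, with 7.43 scaled CPM in FoB and 113 in BMPC, and Myb, with 0 counts and 2.44. Klf2, which drives expression of the egress receptor S1pr1, was 18.6-fold lower in BMPC, and S1pr1 itself 68.6-fold.

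**Figure D4:**
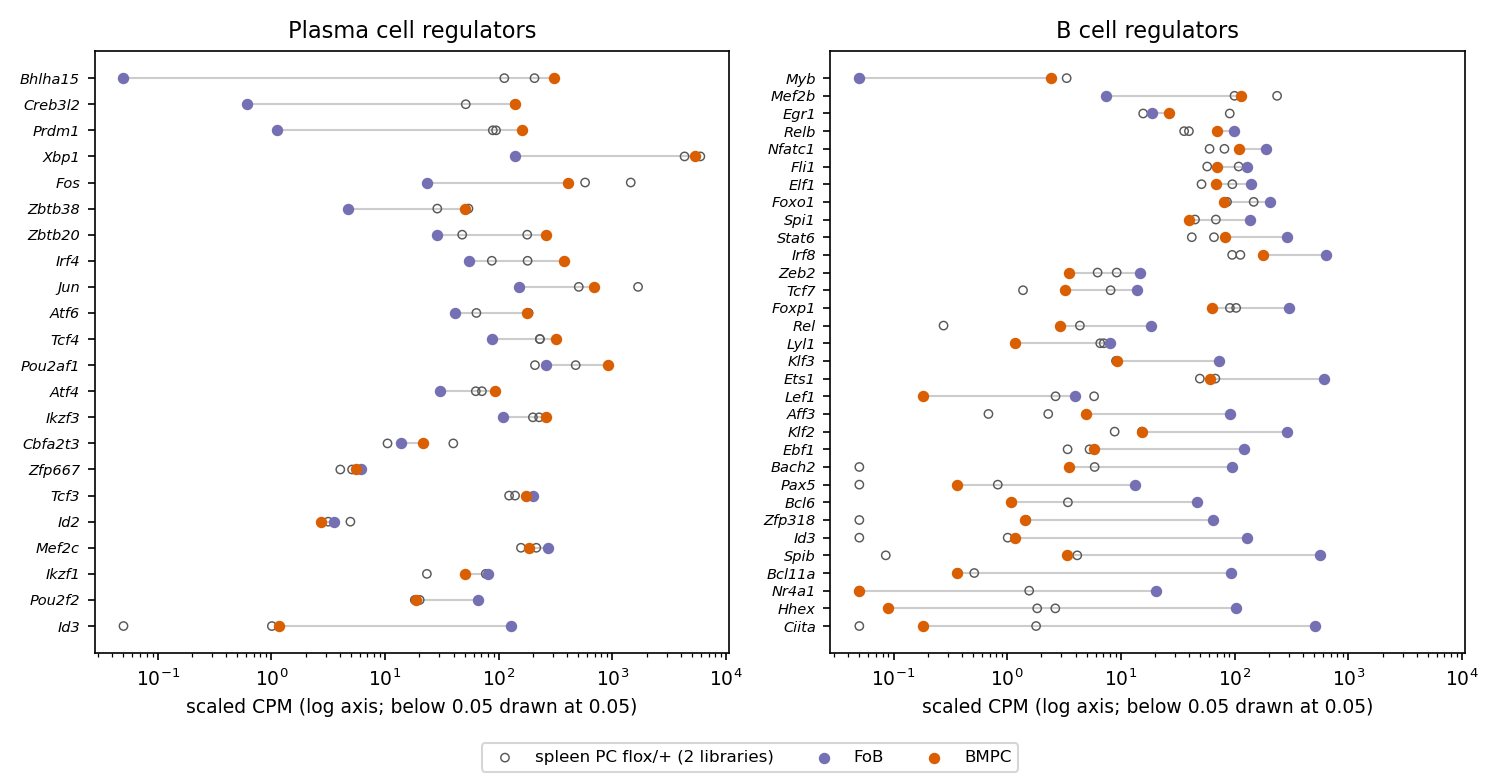
Scaled CPM (log axis) of the listed regulators of plasma cells (left) and of B cells (right) in FoB, BMPC and the 2 flox/+ splenic plasma cell libraries, sorted by the BMPC to FoB ratio. Prdm1 runs from 1.12 in FoB to 159.7 in BMPC and Ciita from 512 to 0.180.

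In the list of plasma cell surface and survival genes, 31 of 44 were at least 4-fold higher in BMPC and 3 lower (median log2 ratio 3.91). Of the 44, 29 were receptor or adhesion genes, with 18 higher and 3 lower (median 2.76). The other 15, which include Jchain, Edem1 and Prg2 and are not all surface genes, had 13 higher and none lower (median 5.32). Sdc1, which encodes the plasma cell marker CD138, stood at 5.39 scaled CPM in FoB and 1369 in BMPC. Of the receptors for BAFF and APRIL, Tnfrsf17 (BCMA) had 0 counts in FoB and 177 scaled CPM in BMPC, at least 2314-fold higher. Tnfrsf13b (TACI) went from 117 to 492, and Tnfrsf13c, the BAFF receptor of B cells, had a log2 ratio of -1.23. Cd28 had 1.70 in FoB and 96.5 in BMPC, and Slamf7 27.3 and 471.

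The 3 lower members were Cd38 (239 in FoB, 36.6 in BMPC), an ectoenzyme of naive mouse B cells, the adhesion molecule Pecam1 (137 and 25.0) and Fcrl5 (51.6 and 10.5). Of the factors that tune antibody output, Tent5c, a poly(A) polymerase, went from 1.20 to 580.3, Ell2, an elongation factor of immunoglobulin mRNA processing, from 14.0 to 183, and its partner Eaf2 from 0.0763 to 145. Ly6a, Ly6c1 and Ly6c2 have near-identical neighbours, and their values, 1621, 9.83 and 1127 in BMPC, are uncertain.

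Of 64 genes of the B cell receptor complex and B cell surface, 36 were at least 4-fold lower in BMPC and 1, Spn (CD43), higher; the median log2 ratio was -2.43. Receptor genes had the lower median: of 44 receptor genes 28 were 4-fold lower (median -3.48), and of 20 signalling genes 8 (median -1.61). Cd22 stood at 1038 and 12.4, Fcer2a (CD23) at 814 and 0.451, and Cr2 (CD21) at 483 and 1.53. The receptor's own signalling chains differed less, with 767 scaled CPM of Cd79a in BMPC against 2414 in FoB, a 3.15-fold difference, and 3.03-fold for Cd79b. The adaptor Blnk had a log2 ratio of 0.11 (-0.10 on the authors' log2 FPKM) and Plcg2 of -0.29, beside -2.06 for Btk and -2.77 for Prkcb, which act in the same cascade.

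MHC class II genes were lower in 16 of 19, of which 13 past 4-fold, with a median log2 ratio of -3.14. H2-Aa, H2-Ab1 and H2-Eb1, the classical chains, were 10.7-fold, 5.59-fold and 7.76-fold lower in BMPC. The peptide-loading genes went further, with H2-Oa at 368 in FoB and 0.180 in BMPC and H2-DMb2 at 943 and 11.2. Cd74, the invariant chain, was at 34531 scaled CPM in FoB and 19879 in BMPC, 1.74-fold lower, and at 14398 and 14038 in the flox/+ cells. Its log2 ratio depended on the scale, with -0.80 by TMM, -1.70 on the authors' log2 FPKM and -2.66 by library size alone. The lysosomal protease Ctss, which trims the invariant chain, had a log2 ratio of 1.29, higher on the TMM scale and lower by library size alone.

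Genes of migration and retention split, with 7 of 25 at least 4-fold higher and 9 lower (median 0.23, and -1.62 by library size alone). The follicle-homing receptor Cxcr5 had 390.1 scaled CPM in FoB and 0 counts in BMPC, at least 1442-fold lower, and Ccr6 was at least 703-fold lower. Ccr7, which guides cells to T cell zones, stood at 276 and 4.78. In the other direction, Ccr10, a homing receptor of plasma cells, went from 0.458 to 85.0, Ccr9 from 1.20 to 14.3 and Cd93 from 1.53 to 52.7. Cxcr4, the receptor for the marrow chemokine CXCL12, had 34.7 in FoB and 48.9 in BMPC, a log2 ratio of 0.50 that changed sign by library size alone.

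Of the 19 gene lists the ER list was the only one with every member on one side: all 55 genes of chaperones and the unfolded protein response were higher in BMPC on the TMM scale, 37 of them past 4-fold and none lower, with a median log2 ratio of 2.78. By library size alone the median was 0.92 and 38 of 55 were higher. Together these genes took up 0.834% of the non-immunoglobulin counts of FoB and 9.23% of those of BMPC. The median of the same list between 2 libraries of one group lay between -0.31 and 0.15. By role, 11 of 15 chaperones (median 3.28), 10 of 14 disulphide and proline enzymes (median 3.12) and 12 of 16 degradation genes (median 2.94) passed 4-fold, against 4 of 10 sensors and factors (median 1.29, and -0.57 by library size alone).

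Among single members Derl3, a channel component of ER-associated degradation, had the largest ratio, from 2.62 scaled CPM in FoB to 1116 in BMPC, 424-fold, or 239-fold on the authors' log2 FPKM. Txndc5, a disulphide isomerase, went from 230.4 to 9775, Edem1, a mannosidase-like degradation factor, from 69.6 to 2775, Hsp90b1 (GRP94) from 164 to 2815 and Pdia4 from 262 to 3062. Hspa5 (BiP), the main chaperone of the heavy chain, was 4.66-fold higher. Of the sensors, Ern1 (IRE1) stood at 2.21 and 77.4, Eif2ak3 (PERK) at 42.6 and 99.5, and Atf6 at 41.4 and 176. Ddit3 (CHOP), the death-linked target of PERK signalling, had a log2 ratio of 0.39.

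The promoters of these genes were searched because the ER stress response element (ERSE), CCAAT followed after 9 bases by CCACG, is a known binding site of ATF6 and XBP1 with NF-Y. In windows from 250 bases before to 50 after each RefSeq start (GRCm38.p6), on both strands, it was found in 10 of the 48 list members with a window (20.8%) and in 37 of 27025 RefSeq genes (0.137%). List and element were both chosen for their known part in the ER stress response, so this share describes the list and tests nothing. The 10 genes had log2 ratios from 0.54 (Ero1lb) to 8.73 (Derl3), so a match went with small and large ratios. Of the 11374 compared genes that are not immunoglobulin genes, 8953 had a window. Among these a match was found in 7 of 1321 that were 4-fold higher in BMPC (0.530%), 1 of 851 lower (0.118%) and 7 of 6781 within 4-fold (0.103%). The ER list holds 10 of these 15 genes, and 6 of the 7 higher ones, so these shares are not separate from that of the list. The matches of 9 of the 10 genes follow, 2 for Hsp90b1, read along the strand of the motif, with capitals for the CCAAT and CCACG boxes.
Canx, 145 bases before the start: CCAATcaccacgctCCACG
Creld2, 126 bases before the start: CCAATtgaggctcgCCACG
Derl3, 156 bases before the start: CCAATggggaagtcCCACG
Dnajc3, 105 bases before the start: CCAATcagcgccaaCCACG
Ero1lb, 201 bases before the start: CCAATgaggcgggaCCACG
Hsp90b1, 212 bases before the start: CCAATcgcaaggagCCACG
Hsp90b1, 107 bases before the start: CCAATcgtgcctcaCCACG
Hspa5, 65 bases before the start: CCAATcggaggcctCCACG
Pdia6, 98 bases before the start: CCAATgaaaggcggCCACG
Syvn1, 44 bases before the start: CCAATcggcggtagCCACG

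The whole windows of Derl3 and Creld2 are shown because these are the ERSE-bearing members with the largest ratios; Creld2, a disulphide isomerase-like chaperone, went from 47.8 to 1974 scaled CPM. Both windows lie on the plus strand and read with the gene, and capitals mark the element, here on the opposite strand as CGTGG and ATTGG.
Derl3, chr10:75893148-75893447: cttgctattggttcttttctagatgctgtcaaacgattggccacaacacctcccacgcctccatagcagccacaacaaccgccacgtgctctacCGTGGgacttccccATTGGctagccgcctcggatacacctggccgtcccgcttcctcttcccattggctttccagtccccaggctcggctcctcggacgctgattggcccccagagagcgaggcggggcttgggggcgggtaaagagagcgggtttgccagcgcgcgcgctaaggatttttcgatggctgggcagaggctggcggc
Creld2, chr15:88819396-88819695: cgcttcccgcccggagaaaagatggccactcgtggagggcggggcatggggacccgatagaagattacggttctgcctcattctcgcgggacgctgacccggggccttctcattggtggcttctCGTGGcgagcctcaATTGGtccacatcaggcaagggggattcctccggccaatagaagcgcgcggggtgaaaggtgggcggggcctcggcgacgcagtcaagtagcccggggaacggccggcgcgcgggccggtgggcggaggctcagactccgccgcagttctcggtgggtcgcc

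The shorter UPR element core TGACGTGG, a site of XBP1 and ATF6, searched on both strands, was found in the windows of Txndc5 and Txndc11, 2 of 48 list members (4.17%), and in 0.714% of RefSeq genes. It was found in 6 of 32 ER to Golgi transport genes with a window (18.8%). Without immunoglobulin genes, it was found in 1.74% of genes 4-fold higher in BMPC, 0.588% of those lower and 1.02% of those within 4-fold. Sites that the study's factor is known to bind, and an ATF element, were searched as well. GAAA repeated after 2 bases, the core of the interferon-stimulated response element, was found in 3.94% of the windows of genes 4-fold higher in BMPC, 5.05% of those 4-fold lower and 3.82% of those within 4-fold. GGAA followed after 2 bases by GAAA, the ETS and IRF composite element, was found in 2.12%, 3.53% and 2.95%, and the ATF element TGACGTCA in 3.10%, 3.41% and 3.91%. All these matches describe letters in a window, and no binding was measured.

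The 2 other lists of the secretory route had smaller medians than the ER list. Of 42 translocation and glycosylation genes 23 were at least 4-fold higher and none lower (median 2.12, and 0.26 by library size alone), led by Tram2 (1.53 to 30.2) and Ssr4 (51.2 to 832), parts of the translocon. The signal peptidase subunit genes Sec11c and Sec11a diverged, at 3.43 and -0.08, as did the oligosaccharyltransferase subunit Tusc3, which was lower (-1.49). Of 37 ER to Golgi genes 15 were 4-fold higher and none lower (median 1.71, and -0.15 by library size alone). Sec24d, a cargo adaptor of COPII vesicles, went from 5.62 to 274 while Sec24b stood at 51.8 and 41.9, and the cargo receptor Lman1 went from 23.8 to 336. Kdelr3, a receptor that returns ER residents, had 0 counts in FoB and 30.5 in BMPC, at least 399.5-fold higher.

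Genes of amino acid supply and the ATF4 response were 20 of 36 at least 4-fold higher in BMPC and 1 lower, with a median log2 ratio of 2.24 (0.38 by library size alone). Asns, asparagine synthetase, had 0 counts in FoB and 195 scaled CPM in BMPC, at least 2558-fold higher. Slc3a2, the CD98 heavy chain, went from 105 to 4447 and its transporter partner Slc7a5 from 24.5 to 544. Pycr1, of proline synthesis, went from 2.14 to 309, and Chac1, a glutathione-degrading enzyme, had 0 counts in FoB and 58.4 in BMPC. Atf4 itself had a log2 ratio of 1.62, and Ddit4, an inhibitor of mTORC1 in the same list, was the lower member (9.44 to 1.71).

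Other metabolic and housekeeping lists stayed near the centre of all genes on the TMM scale. None of 74 nuclear oxidative phosphorylation genes and none of 36 proteasome genes passed 4-fold either way, with medians of 0.10 and 0.12 (-1.76 and -1.73 by library size alone). Glycolysis had 3 higher and 3 lower members of 22 (median -0.10), with Slc2a3, a glucose transporter, at 32.7 and 5.59 and Ldha at 464 and 168. Sterol and fatty acid synthesis had 1 higher and 4 lower of 27 (median -0.19), and the desaturases Scd1 and Scd2 had opposite signs, from 542 to 34.6 and from 29.3 to 152. Autophagy had 5 higher and none lower of 27 (median 0.40, and -1.46 by library size alone), among them Wipi1, at 0 counts in FoB and 89.6 scaled CPM in BMPC.

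Cell cycle genes differed by phase and by scale. Of 54, 20 were at least 4-fold higher and 3 lower, with a median log2 ratio of 1.40 and of -0.46 by library size alone. The 19 mitotic genes had 10 higher and none lower (median 2.06), and the 18 replication genes 3 higher and 2 lower (median -0.41). Mki67 stood at 0.941 scaled CPM in FoB and 34.2 in BMPC, Ube2c at 1.09 and 13.4, and Mcm4, of the replicative helicase, at 55.3 and 9.47. Ccnd2, a G1 cyclin, went from 68.8 to 454. Neutrophil precursor markers were also higher in BMPC, at 849 scaled CPM, and their part in these ratios was not tested. In the 4 splenic plasma cell libraries, where those markers summed to 0 to 3.67, Mki67 stood between 6.35 and 16.5 and Mcm4 between 15.3 and 30.6.

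Of 14 BCL2 family genes 3 were at least 4-fold higher and 2 lower (median 0.45, and -1.41 by library size alone). Mcl1, on which plasma cell survival depends, had a log2 ratio of 0.57 and Bcl2 one of 0.34. Bbc3 (PUMA), a killer of the family, went from 0.992 to 14.3. The 2 lower members, Bcl2a1b and Bcl2a1d, are near-identical copies whose reads could be assigned to either.

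Interferon response genes were 10 of 27 at least 4-fold lower in BMPC and 2 higher, with a median log2 ratio of -1.72. Irf9, a subunit of the interferon-activated transcription complex, stood at 124 and 33.0. The antiviral genes Oasl2 and Ifit3 had 7.33 and 5.93 scaled CPM in FoB and 0 counts in BMPC, at least 27.1-fold and 21.9-fold lower. The higher members were Isg20 (17.5 to 210.1) and Bst2 (29.4 to 119). NF-kB genes had 3 lower and none higher of 24 (median -0.51), the lower ones being Nfkbid, Rel and Map3k14.

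**Figure D5:**
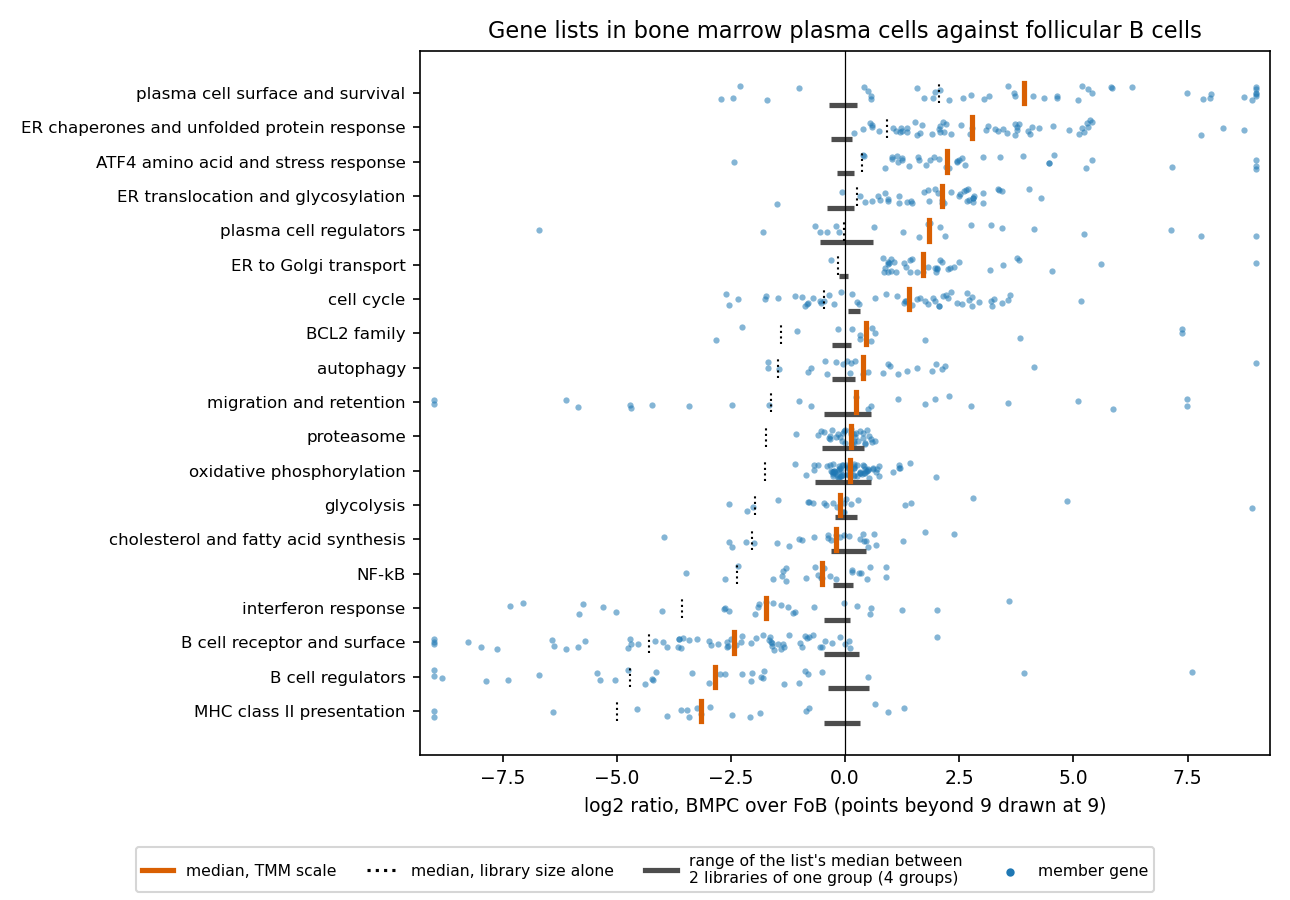
Log2 ratio of BMPC over FoB for the members of 19 gene lists, 1 point per gene, with the list's median on the TMM scale (orange), by library size alone (dotted) and the range of its median between 2 libraries of one group (grey bar). The ER list has a median of 2.78 against -0.31 to 0.15 within groups, and MHC class II one of -3.14; 8 of the 19 medians change sign by library size alone.

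Beyond the lists, the genes with the largest ratios and at least 10 scaled CPM in the higher library held several that encode secreted or membrane proteins. Slpi, a secreted protease inhibitor, went from 4.35 scaled CPM in FoB to 8228 in BMPC, 1886-fold, or 797-fold on the authors' log2 FPKM. It stood at 5699 and 9526 in the flox/+ and 2024 and 1171 in the flox/- splenic plasma cells. Spon1, an extracellular matrix protein, went from 0.153 to 488 and the metallothionein Mt1 from 0.153 to 397. Fut1, a fucosyltransferase, the secreted ligand Wnt10a and the lipid flippase Atp9a had 0 counts in FoB and were at least 3142-fold, 2833-fold and 2478-fold higher. Pls1, an actin-bundling plastin, had 1 count in FoB and 172 scaled CPM in BMPC.

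Of this group Mpo stands apart, since it was at least 2208-fold higher in BMPC but at 0 in all 4 splenic plasma cell libraries. Prg2, the major basic protein of eosinophils, stood at 0.356 in FoB, 898 in BMPC and between 1243 and 2644 in the splenic plasma cells. Of the 10 eosinophil, basophil and mast cell markers 6, including Epx, Fcer1a and Cpa3, were at 0 counts in BMPC, and Prg2 made up 898 of the list's 902 scaled CPM.

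At the other end, several of the genes had no count in BMPC. Srpk3, a splicing kinase, Ms4a4c, Treml2 and B3gnt5, a glycosyltransferase, were at least 449.9-fold, 367-fold, 324-fold and 307-fold lower. Hhex, a homeobox factor, stood at 103 in FoB and 0.0902 in BMPC and Cnn3, an actin-binding calponin, at 231 and 0.451. The cytoskeletal genes Coro1a and Actb were among the 8 genes with the largest difference in scaled CPM, which is not divided by gene length, from 3555 to 243 and from 5041 to 1123.

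Levels per length are given by the authors' deposited log2 FPKM. In FoB the 3 highest genes were Cd74 (15.27), H2-Ab1 (13.81) and H2-Aa (13.29), all of antigen presentation. In BMPC they were Jchain (14.69), Cd74 (13.56) and Slpi (13.16), followed by B2m, Txndc5, H2-K1, Xbp1 (11.90) and Mzb1, a co-chaperone of antibody assembly. Jchain was the only immunoglobulin gene among the 14704 genes of those tables and held one and the same value in 7 of the 10 mouse libraries, so it is not read as a level. Among the listed regulators Xbp1 was the highest in BMPC, and Irf8 (8.73) and Spib (8.50) the highest in FoB.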

How the data were processed

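Gene counts were deposited by the authors as a table of raw counts with 1 column per mouse library. Tools named in the submitters' processing notes are Subread 1.6.0, featureCounts and limma, and builds mm10 and hg38; their order, the annotation, strandedness and filters are not given in the sources used here. The labels' protocols state an RNeasy purification and Nextera libraries. The authors also deposited log2 FPKM tables, whose normalization between libraries is not stated; they were used for levels per length and as an alternative.

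Entries without a symbol (958 of 27179, 0.277% of FoB and 0.0518% of BMPC counts) were left out. Library sizes were corrected by TMM over the 10 mouse libraries (edgeR 4.0.16, R 4.3.3). The log2 ratio used 0.5 added to each count, a filter of 1 scaled CPM in either library and a 4-fold threshold; 95% counting intervals are exact for the ratio of a pair of Poisson counts. With 1 library per group no test was made. Where libraries of one group were compared, nothing in the labels says that they came from separate animals or cultures. Promoter windows came from RefSeq (GRCm38.p6), matched by gene ID; coordinates are from the same assembly.

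The comparison, the 19 gene lists and the 14 marker lists were chosen with earlier results of these data known. Genes were named by rule: the 12 largest ratios each way (at least 10 scaled CPM, not immunoglobulin, no provisional names), the 8 largest differences in CPM each way, the 4 highest and 4 lowest of each list, every listed regulator and surface gene, immunoglobulin constant genes, and the 10 leading variable segments of each library. Chosen outside it, after their values were seen, were the marker and sex-linked genes, the genes with a promoter match, H2-K1, Hspa5, Ern1, Eif2ak3, Slc7a5, Ccnd2, Bcl2 and Irf9. Some genes the rule names are not reported here. Ratios were recomputed with other scalings (library size, DESeq2 1.42.0 size factors, TMM over 2 libraries or without immunoglobulin genes), added counts, filters and thresholds. The method was tested on simulated Poisson counts with known ratios and the scaling factors given. Such counts cover neither the spread between libraries nor the choice of scaling.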

Additional observations from a re-analysis of the deposited data

How the results depend on the processing

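Library size alone gave 1214 genes 4-fold higher and 5414 lower in BMPC, and list medians of -0.027 (plasma cell regulators), 2.05 (plasma cell surface and survival), -4.71 (B cell regulators), -4.29 (B cell receptor and surface), -5.00 (MHC class II), 0.92 (ER chaperones), 0.26 (translocation and glycosylation), -0.15 (ER to Golgi), 0.38 (ATF4), -1.76 (oxidative phosphorylation), -1.96 (glycolysis), -2.05 (sterol and fatty acid synthesis), -0.46 (cell cycle), -1.41 (BCL2 family), -3.58 (interferon), -2.37 (NF-kB), -1.73 (proteasome), -1.46 (autophagy) and -1.62 (migration). By construction this is 1 constant shift; 8 of 19 medians changed sign under it and 0 under any other setting. The higher and lower counts were 1023 and 553 with a filter of 10 scaled CPM, 3075 and 2629 at 2-fold and 1195 and 495 at 16-fold, and 1696 genes were lower with no filter, as more or fewer genes were counted. With the filter of 10 scaled CPM the medians of glycolysis and interferon genes were -0.34 and -1.19. On the authors' log2 FPKM those of plasma cell surface, ER to Golgi and ATF4 genes were 3.69, 1.49 and 2.10. Of 344 named genes in those tables, 46 moved by more than the spread between libraries of one group, 41 of them nearer to 0; 53 moved by over 1.5-fold, 6 changed sign, none of them among the 220 past 4-fold, and 10 were no longer past it; the cause was not tested. By construction, the larger added count moved 30 of 356 named genes nearer to 0 and the smaller one 28 further from it, mostly genes with few counts in one library. Library size alone changed the sign of 53. Counting entries without a symbol made the immunoglobulin share 3.24% in FoB and 71.95% in BMPC. DESeq2 size factors, TMM over 2 libraries, TMM or totals without immunoglobulin genes, and a smaller or larger added count left both gene counts within 1.5 times and all 19 medians on their side of 0. A share of summed FPKM could not be computed for immunoglobulin genes, since those tables hold 1 of them. No paired analysis was possible because each group had 1 library and no replicate number. A floor of 3 counts corresponds to a lower scaled CPM in FoB than in BMPC, so a gene absent from BMPC has the weaker bound.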

Other observations

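Of the 13 protein genes encoded by mitochondria, 11 passed the filter, all 11 lower in BMPC than in FoB, with a median log2 ratio of -0.74 (2 past 4-fold), beside a median of 0.10 for the 74 nuclear oxidative phosphorylation genes. The median of that nuclear list between 2 libraries of one group lay between -0.66 and 0.56. Such a spread was not computed for the mitochondrial genes or for the ribosomal genes that follow. Of 80 cytosolic ribosomal protein genes 78 were lower, with a median of -1.16 and 6 past 4-fold. Many of these genes have processed pseudogenes, and reads shared with a copy make their values uncertain.

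Markers of other B lineage stages were mixed. Early precursor markers summed to 6.94 scaled CPM in FoB and 19.7 in BMPC, of which Kit, a receptor of progenitors and mast cells, made up 19.0; Rag1, Rag2, Igll1 and Vpreb2 were at 0 counts in both libraries. Germinal centre markers summed to 58.5 and 75.0; Bcl6 made up 46.3 of the sum in FoB, and Nuggc, at 0 counts in FoB, 34.8 of that in BMPC, beside 35.1 in flox/+ library b. Marginal zone and innate-like markers summed to 896 and 2322, of which Mzb1 made up 171 and 2248, while Dtx1, a regulator of Notch signalling, stood at 193 in FoB and 5.77 in BMPC.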
